A study of Drosophila melanogaster with 8 samples.

Results

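The genes described here were near silent in the wild type pupal central nervous system (CNS) of Drosophila melanogaster at 36 h after puparium formation (APF) and clearly expressed at 72 h APF. They were chosen by their wild type level alone: under 1 FPKM (mapped fragments scaled to transcript length and library size) at 36 h and 10 or more FPKM at 72 h. Genes of the named cuticle, Osiris, odorant-binding, opsin, arrestin and muscle protein families were left out. The limits were met by 145 of the 13989 genes listed, 1.04% of them, and 122 members remained once 23 family genes were removed. The wild type difference between the times therefore defines the set and is no finding, and what follows describes the same genes in animals with dStim knockdown, whose columns the limits did not use.

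dStim (Stim) encodes the endoplasmic reticulum calcium sensor of store-operated calcium entry, and the study asked which genes change when it is lowered in neurons while the flight circuit forms. The 8 samples fell into 4 groups of 2 biological replicates, each a pool of about 10 CNS. The KD+recovery group, at 72 h APF, had 24 h of dStim knockdown and then 36 h of recovery, and was set against wild type at 72 h APF. The KD group, at 36 h APF, had just ended 24 h of knockdown and was set against wild type at 36 h APF. All knockdown animals were ElavC155GAL4; dStimRNAi/tubulinGAL80ts, in which a pan-neuronal GAL4 driver expresses the RNAi construct once a temperature-sensitive GAL80 repressor is inactivated. Flies were reared at 25 °C and moved to 29 °C for knockdown. Wild type animals were Canton S and carried neither driver, repressor nor RNAi construct, so effects of knockdown, transgenes and genetic background cannot be told apart. The sex of the pupae is not given in the sources used here.

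Each group has 1 FPKM per gene, pooled over its replicates by the authors, so no SD, n or new test accompanies any value, and the depth of the libraries is unknown from the files. Differences are therefore given as values and as counts past a stated fold, and none has been set against the spread between replicates. The 36 h and 72 h tables were made in separate comparisons, which bears on every level set across the times. Between 36 and 72 h APF the brain and ventral ganglion take on their adult form: neurites reach their partners, synapses are built and glia mature. In the same period the neighbouring epidermis and eye lay down adult cuticle and lens, muscles assemble sarcomeres, and in males sperm formation goes on in the testis.

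The tissue carried its defining markers. n-syb, the neuronal synaptobrevin, had 1208 FPKM in KD+recovery and 703 in wild type at 72 h, and 632 in KD and 549 in wild type at 36 h. repo, the glial homeobox gene, lay between 37.5 and 62.0 FPKM over the 4 groups. Stim itself had 31.3 FPKM in KD+recovery against 38.6 in wild type at 72 h, and 33.9 in KD against 42.2 in wild type at 36 h. Over the 6073 genes at 10 or more FPKM in wild type at 72 h, the median log2 ratio of KD+recovery to wild type was 0.01.

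The limits cut through a continuum. Nearest inside the 36 h limit were CG11362 at 0.992, CG1443 at 0.980 and CG14095 at 0.978 FPKM in wild type, and nearest outside were CG17029 and CG10280 at 1.05 and CG3713 at 1.07. At 72 h the members just inside were CG12853 and CG13340 at 10.1 and CG12268 at 10.2 FPKM, and just outside lay CG15414 at 9.93, CG30430 at 9.84 and CG8774 at 9.72.

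By class, 99 members were protein coding, 21 were small nucleolar or other small noncoding RNAs, and 2 were longer noncoding RNAs. At 72 h the members had a median of 16.8 FPKM in KD+recovery and 26.5 FPKM in wild type. At 36 h the medians were 0.321 FPKM in KD and 0.254 FPKM in wild type. The levels spanned a wide range at 72 h, with the lower quartile at 0.193 FPKM in KD+recovery and 14.3 FPKM in wild type, and the upper quartile at 41.9 and 64.7 FPKM in the same order of groups.

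The set divided into a larger group of genes at similar levels in both genotypes at 72 h and a smaller one that was close to silent in KD+recovery. Of the 122 members, 64 were within 2-fold of wild type, 5 were 2-fold or more higher in KD+recovery, and 53 (43.4%) were 2-fold or more lower, of which 23 were listed at 0. The background over all 6073 genes at 10 or more FPKM in wild type at 72 h was 2.54% for 2-fold or more lower and 0.725% for 2-fold or more higher. Past 10-fold, genes listed at 0 included, there were 43 members, against a background of 1.10%. Only 10 members lay between 2- and 10-fold lower. Because the wild type value at 72 h enters both the choice of members and the ratio, part of the excess of lower over higher is fixed by the choice, and these counts are a description.

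**Figure D1:**
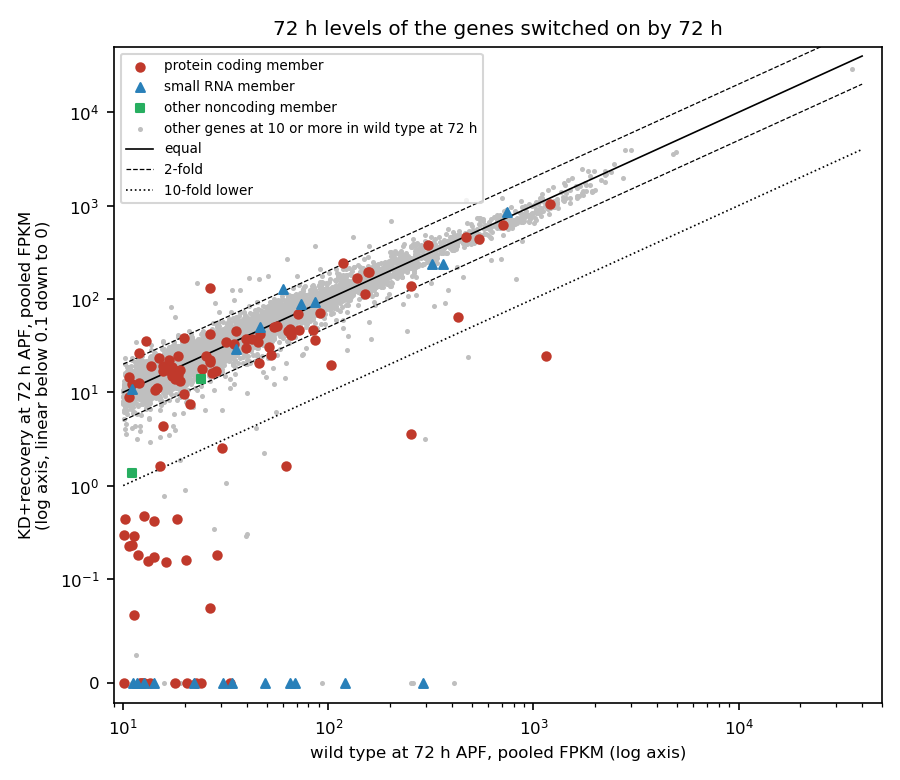
Pooled FPKM at 72 h APF in KD+recovery (vertical, log axis that is linear below 0.1) against wild type (horizontal, log axis), for protein coding members (red circles), small RNA members (blue triangles), other noncoding members (green squares) and all other genes at 10 or more FPKM in wild type (grey). Most of the members follow the line of equal levels, 43 lie at or beyond the 10-fold line or at 0, and few lie between.

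Among the 99 protein coding members, 55 were within 2-fold, 40 (40.4%) were 2-fold or more lower, 31 of these 10-fold or more, and 4 were 2-fold or more higher. The 31 lowest had a median of 0.161 FPKM in KD+recovery and 14.1 FPKM in wild type. Their summed level was 36.1 FPKM in KD+recovery against 1931 FPKM in wild type. CG34196 alone gave 24.4 FPKM of the first sum and 1155 FPKM of the second. The 55 within 2-fold had medians of 32.5 FPKM in KD+recovery and 31.7 FPKM in wild type. Their sums were 5062 FPKM in KD+recovery and 5568 FPKM in wild type. Both groups were formed by the ratio of these columns, so the contrast between their levels follows from the choice and is a description. The 31 also came from shorter transcripts, with a median of 619 nt for the longest annotated transcript against 1188 nt for the 55.

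Among genes already expressed at 36 h, lower levels in KD+recovery were less frequent. Among protein coding genes outside the named families and at 10 or more FPKM in wild type at 72 h, 358 had 1 to under 10 FPKM in wild type at 36 h, and 5.03% of these were 2-fold or more lower in KD+recovery, 1.96% were 10-fold or more lower and 3.35% were 2-fold or more higher. With 18 lower and 12 higher, and a median log2 ratio of 0.05, that class was nearly balanced. Of the 5344 at 10 or more FPKM at 36 h, 0.823% were 2-fold or more lower, 0.0561% were 10-fold or more lower and 0.356% were 2-fold or more higher. Of the members, 4.04% of the protein coding ones were 2-fold or more higher. All 3 classes had the same minimum at 72 h. Their median wild type levels at 72 h differed, at 23.9 FPKM for the members, 17.6 FPKM for the middle class and 34.7 FPKM for the last. The equal minimum does not make the choice equal. The members, low in wild type at 36 h, entered through the 72 h wild type value alone, which is also in the ratio. Part of the difference between the classes is therefore fixed by the choice, and the shares are a description. Of the 43 protein coding genes at 10 or more FPKM in wild type at 72 h, named families included, that were 10-fold or more lower in KD+recovery, 31 were members.

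**Figure D2:**
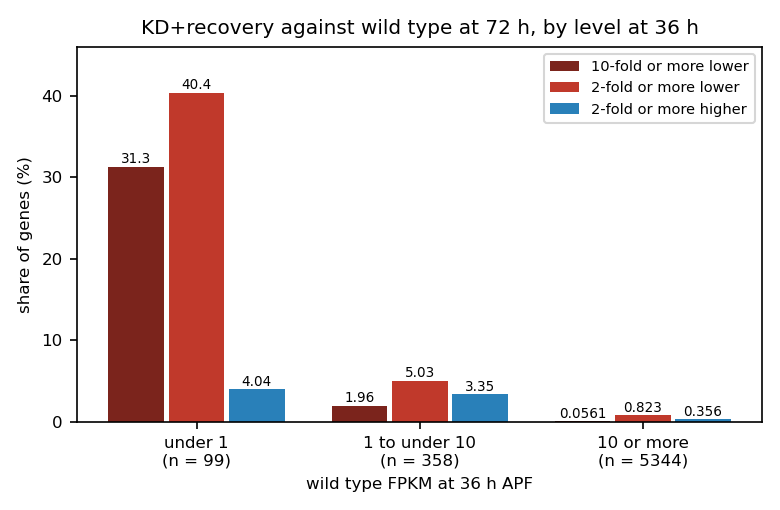
Share of protein coding genes (vertical, percent) that were 10-fold or more lower, 2-fold or more lower, or 2-fold or more higher in KD+recovery than in wild type at 72 h, by wild type FPKM at 36 h (horizontal, 3 classes with their number of genes). The share 2-fold or more lower is 40.4% for the 99 members, 5.03% for the middle class and 0.823% for genes at 10 or more FPKM at 36 h. Part of this difference is fixed by the choice of the members.

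Mirrored limits within 72 h were set after the values were seen. Of 13034 protein coding genes outside the named families, 32 were under 1 FPKM in KD+recovery and at 10 or more in wild type, while 3 were under 1 FPKM in wild type and at 10 or more in KD+recovery. As 27 of the 32 were members, this count mostly restates the one above and is no separate evidence. At 36 h the mirrored counts were 5 genes under 1 FPKM in KD and at 10 or more in wild type, and 4 under 1 FPKM in wild type and at 10 or more in KD.

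The same limits were then applied to the knockdown animals. In their columns, under 1 FPKM in KD at 36 h and 10 or more in KD+recovery at 72 h, 133 genes qualified, 0.951% of all genes listed. Of the 122 members 63 (51.6%) did so, among them 58 of the 99 protein coding members and 4 of the 21 small RNAs. Once the same families were left out, the knockdown set held 109 genes, so the 63 shared genes were 57.8% of it. The remaining members missed the limits mostly at 72 h: 48 had under 10 FPKM in KD+recovery, 39 of them under 1 FPKM.

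At 36 h, 19 members (15.6%) were at 1 or more FPKM in KD while under 1 FPKM in wild type. The background was 5.55% of the 4686 genes under 1 FPKM in wild type at 36 h. Of the 19, 11 were small RNAs and 7 were protein coding. The 7 made up 7.07% of the 99 protein coding members, beside 5.55% for genes of all classes, and are named as a description. The background was not computed for protein coding genes or small RNAs alone. CG18367 had the highest level of the 7, with 11.9 FPKM in KD against 0.865 in wild type, and CG13239 had 3.12 FPKM in KD against 0.580 in wild type. CG13231 had 3.09 FPKM in KD against 0.957 in wild type. These 3 protein coding genes were at similar levels at 72 h, with 13.1 FPKM in KD+recovery and 18.8 FPKM in wild type for CG18367, 462 and 468 FPKM for CG13239, and 22.1 and 26.5 FPKM for CG13231, in the same order of groups. The other 4, GstE2, Jhe, Nplp2 and CG11147, lay between 1.24 and 1.61 FPKM in KD.

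The members with a role described next were picked for that role after their values were seen, and all lay within 2-fold of wild type at 72 h. Vha36-3, another member with a role, lay outside 2-fold and is given with the lower genes. Among signalling genes, Proc-R, the receptor of the neuropeptide proctolin, had 44.9 FPKM in KD+recovery and 35.6 FPKM in wild type at 72 h, and 0.234 FPKM in KD and 0.429 FPKM in wild type at 36 h. Nplp2, a neuropeptide-like precursor, had 19.0 FPKM in KD+recovery and 15.6 FPKM in wild type at 72 h. It was the only one of 43 listed neuropeptide genes that met the limits, since the other neuropeptide genes at 10 or more FPKM at 72 h were already above 1 FPKM in wild type at 36 h.

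Several members act in juvenile hormone handling. Jhe, the esterase that inactivates juvenile hormone, had 51.7 FPKM in KD+recovery and 56.4 FPKM in wild type at 72 h. Jheh3, an epoxide hydrolase of the same family as the juvenile hormone hydrolases, had 16.8 FPKM in KD+recovery against 28.3 FPKM in wild type, and Jhbp4 (listed as CG10264), a predicted juvenile hormone binding protein, had 70.0 against 91.4 FPKM. All 3 were lower in KD+recovery, by less than 2-fold.

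The beta-alanine pathway, which recycles histamine and dopamine and hardens cuticle, was also represented. b, the aspartate decarboxylase that makes beta-alanine, had 37.9 FPKM in KD+recovery and 19.8 FPKM in wild type at 72 h, a log2 ratio of 0.94, just short of 2-fold. Balat (CG3790), a beta-alanine transporter, had 69.0 FPKM in KD+recovery and 71.5 FPKM in wild type. GlyT (CG5549), a glycine transporter, had 23.2 FPKM in KD+recovery and 15.0 FPKM in wild type. b alone among the 26 listed tanning and pigmentation enzymes met the limits.

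Of 154 listed cytochrome P450, glutathione transferase and UDP-glycosyltransferase genes, which detoxify or modify small molecules, 4 were members and none was 10-fold lower. GstE2 had 196 FPKM in KD+recovery and 158 FPKM in wild type at 72 h. Cyp4s3 had 37.7 FPKM in KD+recovery and 39.8 FPKM in wild type, Cyp28c1 had 34.5 and 31.7 FPKM, and Cyp12e1 had 13.8 and 17.8 FPKM, in the same order of groups. None of the 4 differed by more than 1.5-fold between the genotypes.

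Of the remaining members with a role, drd, a membrane protein named for the early death and brain degeneration of its mutants, had 32.5 FPKM in KD+recovery and 34.7 FPKM in wild type at 72 h. wat (CG1443), a fatty acyl-CoA reductase needed for gas filling of tracheal tubes, had 34.4 FPKM in KD+recovery and 45.6 FPKM in wild type. Mf, the thick filament protein myofilin, had 42.0 FPKM in KD+recovery and 46.7 FPKM in wild type. NimB4, a secreted member of the Nimrod family of blood cell proteins, had 18.7 FPKM in KD+recovery and 17.3 FPKM in wild type. All 4 lay within 2-fold of wild type, as did every member placed in this group. Members with a known role that lay further from wild type, the male germline ones among them, are described separately. Adgf-D, an adenosine deaminase-related growth factor, had 30.8 FPKM in KD+recovery against 51.2 FPKM in wild type, a difference of 1.66-fold.

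**Figure D3:**
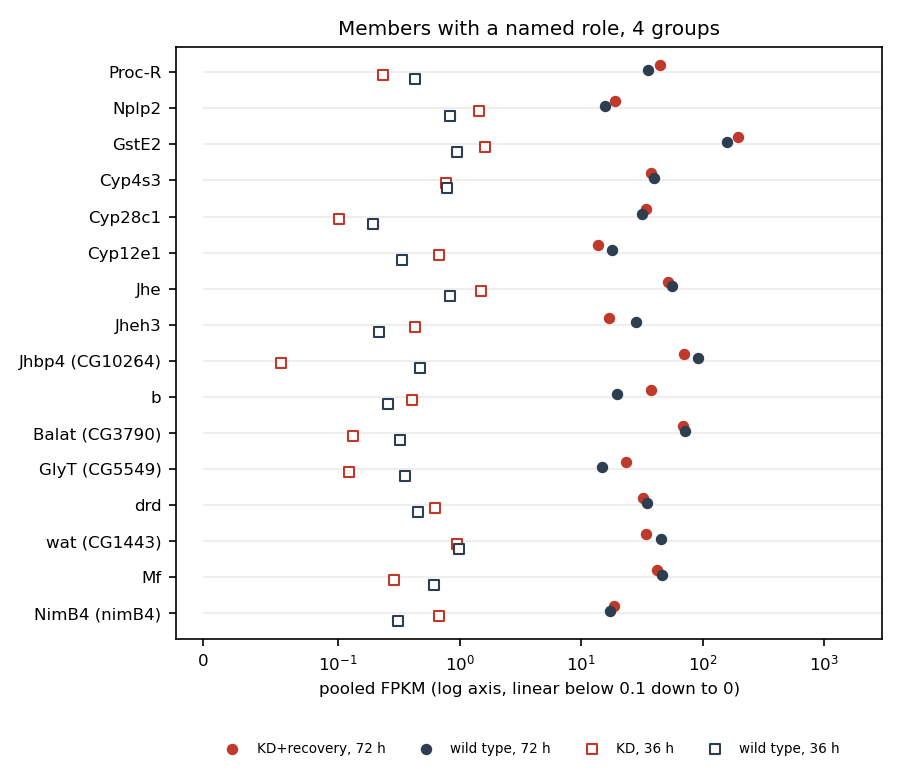
Pooled FPKM (horizontal, log axis that is linear below 0.1) of 16 members picked for a named role outside the male germline, for KD+recovery and wild type at 72 h (filled red and dark circles) and for KD and wild type at 36 h (open red and dark squares). The 72 h circles of both genotypes lie beside each other for every gene shown, within 2-fold, and the 36 h squares lie at or below 1.61 FPKM.

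Other tissue lists contributed no member: photoreceptor signalling, lens and eye pigment, chitin and apical matrix, pan-neuronal and synaptic, glia, fat body, trachea, ciliated sensory neurons, sensory support, immune effectors, hydrocarbon synthesis, chemoreceptors, named proteases and housekeeping genes. Their genes were either already at 1 or more FPKM in wild type at 36 h or still under 10 FPKM at 72 h, or belonged to families left out by name. Summed over the photoreceptor list, the level at 72 h was 6601 FPKM in KD+recovery and 5182 FPKM in wild type, and over the muscle list it was 2964 and 3348 FPKM in the same order. The pan-neuronal list summed to 9526 FPKM in KD+recovery and 6964 FPKM in wild type, and the trachea list to 308 and 441 FPKM. These sums are carried by a few abundant genes, and single genes differed more. Of the pan-neuronal genes at 10 or more FPKM in wild type at 72 h, 6 of 21 were 1.5-fold or more higher in KD+recovery and 0 lower, n-syb among the 6. The chitin and apical matrix list summed to 937 FPKM in KD+recovery and 1197 FPKM in wild type. Of its genes at 10 or more FPKM, 7 of 22 were 1.5-fold or more lower and 1 higher. On the muscle list 5 of 21 were 1.5-fold or more lower and 0 higher. At the same fold, 3 of 21 photoreceptor genes were higher and 2 lower, and 0 of 21 glial genes were either. Lower were also 1 of 14 lens and eye pigment genes, 1 of 11 fat body genes and 2 of 7 tracheal genes, with 0 higher. The share of all genes past 1.5-fold was not computed, so these counts are a description. Past 2-fold, 4 genes of the chitin list and 1 of the muscle list were lower, and 0 pan-neuronal genes were higher. The background over all genes at 10 or more FPKM was 2.54% for lower and 0.725% for higher. On the trachea list ect had 12.1 FPKM in KD+recovery against 54.3 FPKM in wild type. The part that tissue makeup had in the members' values was not tested. In a pooled tissue, fewer cells of a type and less RNA per cell cannot be told apart.

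Of the 10 most abundant members in wild type, 3 were small RNAs, described with their class. The protein coding ones are named by a CG number alone, and no role is given for them here. CG14095 had the highest level in wild type, with 1049 FPKM in KD+recovery and 1197 FPKM in wild type at 72 h, and CG13031 had 621 and 706 FPKM. CG13048 had 443 FPKM in KD+recovery and 542 FPKM in wild type, and CG13049 had 380 and 307 FPKM. These 4 genes were at similar levels in both genotypes at 72 h and under 1 FPKM in all 36 h columns.

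Near the top of the same ranking stood genes that behaved otherwise. CG34196 had 24.4 FPKM in KD+recovery against 1155 FPKM in wild type at 72 h, 47.4-fold lower (log2 ratio -5.57), and was under 1 FPKM at 36 h, with 0.840 FPKM in KD and 0.734 FPKM in wild type. CG14191 had 3.61 FPKM in KD+recovery against 252 FPKM in wild type (log2 ratio -6.13), and CG34211 had 1.60 against 62.0 FPKM (log2 ratio -5.27). CG15212 had 63.9 FPKM in KD+recovery against 428 FPKM in wild type, 6.70-fold lower, and was listed at 0 in both genotypes at 36 h. The first of these was second in the whole set in wild type, so a strong difference was not limited to genes near the 10 FPKM minimum.

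The lowest ratios above 0 belonged to genes at 11.2 to 28.6 FPKM in wild type. CG12699 had 0.0715 FPKM in KD+recovery against 26.5 FPKM in wild type (log2 ratio -8.54), CG17376 had 0.182 against 28.6 FPKM (log2 ratio -7.30), CG34168 had 0.161 against 20.2 FPKM (log2 ratio -6.97) and CG31740 had 0.151 against 16.3 FPKM (log2 ratio -6.75). All 4 were under 1 FPKM in both genotypes at 36 h, so that KD+recovery at 72 h resembled the 36 h samples. Vha36-3 (CG8310), an isoform of the D subunit of the vacuolar proton pump, had 1.62 FPKM in KD+recovery against 15.1 FPKM in wild type (log2 ratio -3.22). Among the 11 protein coding members listed at 0 in KD+recovery, the highest in wild type was CG31226, at 33.0 FPKM.

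In the other direction, 5 members were 2-fold or more higher in KD+recovery at 72 h, the furthest by a log2 ratio of 2.30. CG13066 had 131 FPKM in KD+recovery against 26.5 FPKM in wild type. CG14570 had 35.8 against 12.9 FPKM (log2 ratio 1.47), CG16743 had 26.1 against 12.0 FPKM (log2 ratio 1.12), and CG34199 had 240.8 against 118 FPKM (log2 ratio 1.03). These 4 protein coding genes were under 1 FPKM in KD and in wild type at 36 h. The remaining one, snoRNA:U14:30Eb, had 129 FPKM in KD+recovery against 59.9 FPKM in wild type (log2 ratio 1.10).

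Of the gene lists examined, the male germline list alone held members that were 10-fold or more lower in KD+recovery. Primary spermatocytes switch on a large set of genes found in no other cell, and their products build the sperm tail, its mitochondrial derivatives and the compacted sperm nucleus. On a list of 40 such genes, 37 were listed in the files and 9 were members, and all 9 were 10-fold or more lower in KD+recovery. Mst84Da, Mst84Db, Mst84Dc, Mst84Dd and Mst87F, short cysteine-rich proteins of the sperm tail, were listed at 0 FPKM in KD+recovery at 72 h. In wild type at 72 h they had 23.9, 17.9, 22.8, 12.3 and 20.4 FPKM, in the order named. None of the 5 passed 0.678 FPKM in any 36 h column.

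Mst77F, a linker histone-like protein of sperm chromatin, had 0.477 FPKM in KD+recovery against 12.7 FPKM in wild type at 72 h. loopin-1, a leucyl aminopeptidase of the sperm mitochondrial derivative, had 0.0655 FPKM in KD+recovery against 11.2 FPKM in wild type (log2 ratio -7.42). Its relative S-Lap7 (CG13340) was listed at 0 in KD+recovery against 10.1 FPKM in wild type, and ocn, a testis protein, at 0 against 12.6 FPKM. The 9 genes thus shared 1 pattern, present in wild type at 72 h and at or near the 36 h level in KD+recovery.

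Most of the list beyond the members went the same way at 72 h. Summed over the 37 genes, the level was 9.77 FPKM in KD+recovery and 231 FPKM in wild type at 72 h, and 19.4 FPKM in KD and 18.8 FPKM in wild type at 36 h. At 72 h, 2 of the 37 were at 1 or more FPKM in KD+recovery and 26 in wild type, and 15 were listed at 0 in KD+recovery against 1 in wild type. Below the 10 FPKM minimum, Mst98Ca had 0.0410 FPKM in KD+recovery against 7.61 FPKM in wild type, and dj, a sperm tail protein, was listed at 0 against 5.53 FPKM. The germline regulators bam and aly, which act before these genes are transcribed, stayed at or under 0.148 FPKM in both 72 h columns. betaTub85D, the testis tubulin, had 2.68 FPKM in KD+recovery and 9.06 FPKM in wild type at 72 h (log2 ratio -1.76). Other genes of the list were higher in KD+recovery than in wild type at 72 h. Pros28.1A had 3.35 FPKM in KD+recovery (log2 ratio 0.82). The log2 ratio was 1.19 for tomb, 0.36 for mia, 0.51 for topi and 0.05 for aly, all under 1 FPKM in both 72 h columns.

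**Figure D4:**
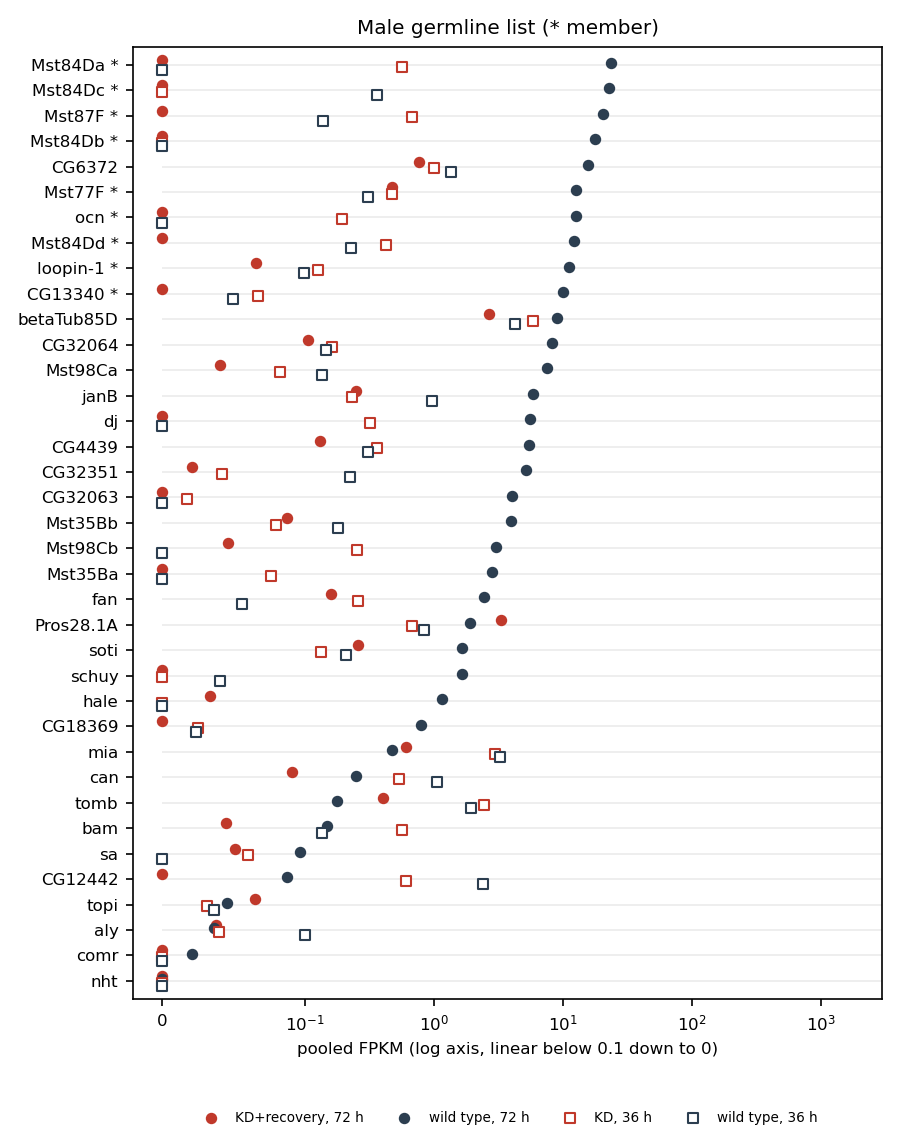
Pooled FPKM (horizontal, log axis that is linear below 0.1) of the 37 listed genes of the male germline list, in order of the wild type level at 72 h, for KD+recovery and wild type at 72 h (filled red and dark circles) and KD and wild type at 36 h (open red and dark squares). Asterisks mark the 9 members, for which wild type at 72 h stands at 10.1 to 23.9 FPKM and the other 3 groups at 0.678 FPKM or less.

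Male-specific RNAs made in somatic cells moved in the same direction at 72 h. roX1 and roX2, noncoding RNAs of male X chromosome dosage compensation that were looked up after the germline values were seen, had 108 and 14.7 FPKM in KD+recovery, against 244 and 49.9 FPKM in wild type at 72 h. At 36 h roX1 had 294 FPKM in KD and 301 FPKM in wild type, and roX2 had 63.1 and 72.6 FPKM in the same order. The part of the sex of the pooled pupae, and of tissue other than CNS, in the values of the germline genes was not tested. Without the 9 genes, 44 of the remaining 113 members were 2-fold or more lower in KD+recovery, 12 of them small RNAs listed at 0. Of the 90 protein coding members off the list, 31 were 2-fold or more lower. The list is a selection of 40 names, so a member off it is not thereby shown to lie outside the male germline. Whether the members off it are male germline genes was not tested.

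Many protein coding members lay next to each other. With members joined where they were at most 10 kb apart in the dm3 genome, 35 of the 99 protein coding members had another within reach, in 13 runs without small RNAs. Of other protein coding genes, 3.65% (480 of 13154) lay within 10 kb of a member. In 10 of the 13 runs all members fell into the same class at 72 h, either 2-fold or more lower, within 2-fold or higher. With 55 of the 99 within 2-fold and 40 lower, some agreement is to be had from the class sizes alone. How much was not computed, so this count is a description.

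The longest run held 6 members in 25.2 kb at chr3L:16263469-16288640. From the left these were CG34248 with 16.9 FPKM in both KD+recovery and wild type, CG13066, CG13049, CG13048, CG13046 with 20.9 FPKM in KD+recovery and 26.6 FPKM in wild type, and CG4962 with 50.5 and 54.5 FPKM. CG13066, the member with the highest ratio, thus sat among neighbours within 2-fold of wild type. A second run on the same arm, chr3L:19457149-19469456, held 5 members in 12.3 kb. It began with the abundant CG14095 and went on with CG14096, which had 45.99 FPKM in KD+recovery and 71.9 FPKM in wild type, and CG32214, with 45.7 and 63.9 FPKM. CG18294 had 16.8 FPKM in KD+recovery and 15.6 FPKM in wild type, and CG32213 had 9.49 and 19.9 FPKM.

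Of the 31 protein coding members that were 10-fold or more lower in KD+recovery, 10 lay in a run with another such gene. Mst84Dd, Mst84Dc, Mst84Db and Mst84Da lay within 6.01 kb at chr3R:3189017-3195027, and all 4 were listed at 0 in KD+recovery. CG17376 and CG17377 lay at chr2L:6799946-6802830, with 0.182 and 0.285 FPKM in KD+recovery against 28.6 and 11.2 FPKM in wild type. CG42688 and CG17567, at chr2L:19182184-19183613, were at 0 and 0.441 FPKM in KD+recovery against 13.5 and 18.4 FPKM in wild type. CG10252 and CG31468, at chr3R:19520936-19526076, had 0.418 and 0.173 FPKM in KD+recovery against 14.1 and 14.2 FPKM in wild type. A milder pair was CG15212 with CG15213, at chr3L:5124650-5126320, where CG15213 had 19.5 FPKM in KD+recovery against 103 FPKM in wild type. Reads shared between neighbours of similar sequence were not looked for, so single values within a run are less certain than the run as a whole.

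Beyond lying close to each other, the protein coding members had shorter transcripts than other genes. Their longest annotated transcript had a median of 833 nt, against 1766 nt over all protein coding genes listed. Single-exon transcripts were as frequent among them, 15.2%, as among all protein coding genes, 15.0%. Over the chromosome arms they were spread much as all protein coding genes are, with 17 on 2L, 22 on 2R, 21 on 3L, 25 on 3R, 14 on X and 0 on chromosome 4. In the files 77 of the 99 had a locus of their own, while the rest shared one with another gene.

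The 21 small RNA members followed another pattern, in which a gene was either high or listed at 0. Small nucleolar RNAs guide the chemical modification of ribosomal and spliceosomal RNA and lie mostly within introns of other genes. All 21 were listed at 0 in wild type at 36 h and all shared their locus with another gene, and the median length of the 20 with an annotated transcript was 84.5 nt. In KD+recovery 12 were listed at 0 at 72 h, 8 were within 2-fold of wild type and 1 was higher. Of all 312 small RNAs listed, 213 (68.3%) were at 0 in KD+recovery at 72 h and 210 (67.3%) in wild type. The 12 are therefore no result about the members. In KD at 36 h 10 of the 21 were at 10 or more FPKM, although wild type was at 0.

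The most abundant of them in wild type had 853 FPKM in KD+recovery and 740 FPKM in wild type at 72 h, and 136 FPKM in KD against 0 in wild type at 36 h. snoRNA:Me18S-C1831 had 236 FPKM in KD+recovery and 362 FPKM in wild type at 72 h, and 254 FPKM in KD against 0 in wild type at 36 h. snoRNA:Or-CD4 had 236 FPKM in KD+recovery and 321 FPKM in wild type at 72 h, and 128 FPKM in KD against 0 in wild type at 36 h. These 3 were thus listed at 0 in wild type at 36 h alone. snoRNA:Me28S-C788a and snoRNA:Me28S-C3227a had 115.004 and 113.4 FPKM in KD against 0 in wild type at 36 h, and 0 in KD+recovery against 120 and 68.8 FPKM in wild type at 72 h.

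**Figure D5:**
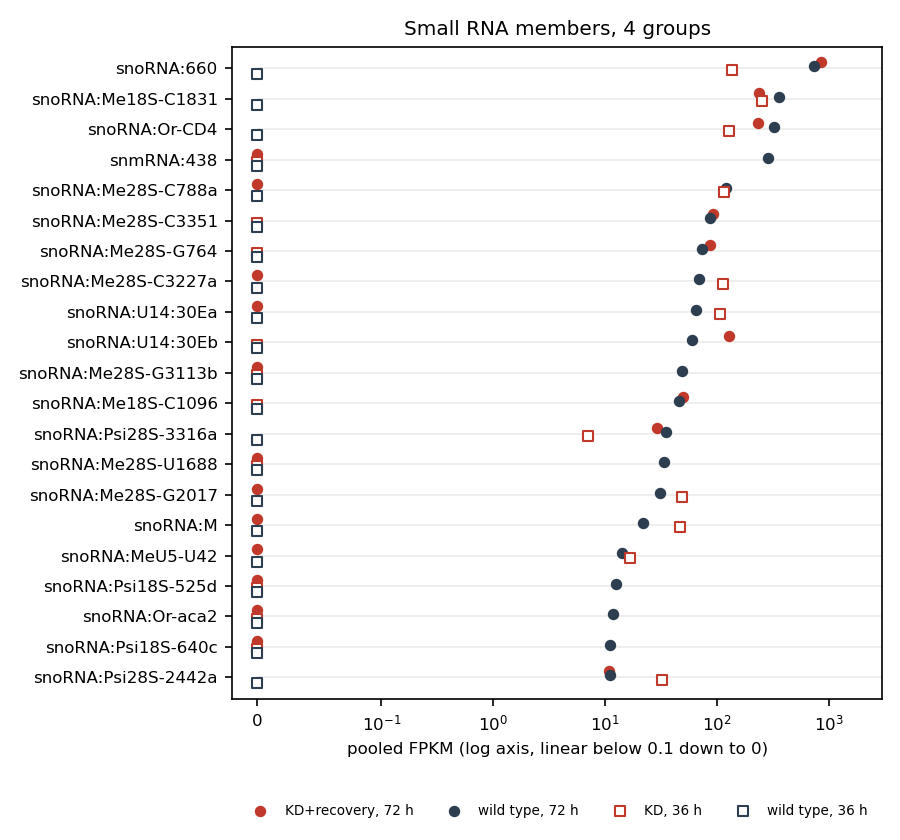
Pooled FPKM (horizontal, log axis that is linear below 0.1) of the 21 small RNA members, in order of the wild type level at 72 h, for KD+recovery and wild type at 72 h (filled red and dark circles) and KD and wild type at 36 h (open red and dark squares). All wild type squares stand at 0, and the points of the other groups stand either at 0 or at 6.98 FPKM and above.

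A separate read count by the authors held most of these genes. In their second table for the 36 h samples, which gives an average log2 CPM (read counts scaled to library size), 19 of the 21 were present, with a median of 2.46 and up to 6.16 for snoRNA:Or-aca2, which is listed at 0 FPKM in 3 of the 4 groups. snoRNA:Me18S-C1831 stood at 6.12 there. The average is nearly the same in the 72 h table, so whether it covers the 36 h libraries alone is not known, and it does not give the level of any group. The authors' software flagged 10 of the 21 as not testable at 72 h, and none of the protein coding members.

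Switching between 0 and high values was common to small RNAs at large. Of 312 listed, 21 (6.73%) were under 1 FPKM in wild type at 36 h and at 10 or more at 72 h, and 46 (14.7%) met the opposite limits. Between genotypes at 36 h, 31 were at 10 or more FPKM in KD and under 1 in wild type, and 34 the other way round. At 72 h, 14 were at 10 or more FPKM in KD+recovery and under 1 in wild type, and 24 the other way round. For protein coding genes outside the named families the counts for the times were 99 (0.760%) and 68 (0.522%) of 13034. The small RNA members are therefore counted apart from the protein coding ones.

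The 2 longer noncoding members differed from each other. pncr003:2L had 13.8 FPKM in KD+recovery and 23.9 FPKM in wild type at 72 h, and 0.289 FPKM in KD and 0.382 FPKM in wild type at 36 h. CR32657 had 1.38 FPKM in KD+recovery at 72 h, 7.98-fold lower than in wild type, and 1.51 FPKM in KD against 0.569 FPKM in wild type at 36 h.

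The 23 family genes that met the limits but were left out by name gave a comparison within the same times. Their medians at 72 h were 55.7 FPKM in KD+recovery and 47.6 FPKM in wild type. At 72 h 16 of them were within 2-fold, 6 were 2-fold or more lower and 1 was 2-fold or more higher in KD+recovery, and 22 of the 23 met the limits in the knockdown columns as well. The only one 10-fold or more lower was Lcp65Ag2, a larval cuticle protein gene, with 0.300 FPKM in KD+recovery against 40.002 FPKM in wild type. Over genes above 0 in both columns the median log2 ratio of KD+recovery to wild type was -0.40 for 88 protein coding members and -0.18 for the 23 family genes, beside 0.01 for all genes at 10 or more FPKM.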

How the data were processed

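RNA was sequenced from pooled pupal CNS of 4 groups with 2 biological replicates each. Per the labels' processing notes, the authors used CASAVA, TopHat2 2.0.11, Cuffdiff 2.2.0 and edgeR with genome build dm3. For each gene and group the authors deposited 1 geometrically normalized FPKM that pools both replicates, and average log2 CPM values of TMM-normalized read counts in EdgeR tables. The average log2 CPM deposited for 72 h differed from that for 36 h by a median of 0.000853 over 10110 genes, so only the 36 h column was used. Fold changes and p-values of the authors' own comparisons, held in the same tables, were not used. Depth per sample is unknown from the files, and no column per replicate was held in them, so no error or interval could be computed and no new test run.

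Members were selected on wild type FPKM (under 1 at 36 h, 10 or more at 72 h). Members and gene lists were chosen with earlier results of these data known. Ratios were taken without a pseudocount, and genes listed at 0 were counted as lower without a fold. Named genes were the 10 highest in wild type at 72 h, the 5 highest and 5 lowest ratios, the 5 highest in KD at 36 h, the 3 nearest to each limit on either side, members on a list and members in runs, and others were named after their values were seen. Gene names matched RefSeq symbols for 120 of 122 members, and transcript lengths and exons came from Ensembl release 115. Libraries did not mark strand, so overlapping genes cannot be told apart. Loci begin 1 base after the deposited start, which was taken to count from 0. Of 8646 loci of 1 gene, 1439 had the gene length of another genome build under that reading. Counting from 1, 149 did, and the rest fitted neither. The counting script was tested on simulated data. Python 3.11.15, pandas 2.3.3, NumPy 2.4.6 and matplotlib 3.10.9 were used. Alternatives were other limits and folds, a pseudocount of 1, scaling by median ratio or upper quartile, and subsets of members.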

Additional observations from a re-analysis of the deposited data

How the results depend on the processing

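The values rest on 1 pooled FPKM per group, so no result could be recomputed without single replicates, and the files do not give library depth. No paired analysis was possible because the columns are pooled over the replicates. The 122 members became 202 with a 72 h minimum of 5 FPKM and 71 with one of 20 FPKM. The 53 members 2-fold or more lower in KD+recovery became 25 among the 71 members at 20 or more FPKM in wild type at 72 h and 32 among the 79 members with a locus of their own. The 5 that were 2-fold or more higher became 8 at 1.5-fold, 1 at 3-fold, 2 after upper quartile scaling, and 3 both at 20 or more FPKM and with a locus of their own. The median log2 ratio of KD+recovery to wild type, -0.38 over 99 members above 0 in both columns, became -0.62 with a pseudocount of 1, which also takes in the genes listed at 0, -0.53 after upper quartile scaling, -0.41 after median ratio scaling, -0.41 with a locus of their own and -0.38 with the families kept. In alternatives added after the data were seen it was -0.40 for protein coding members and -0.37 without the male germline list. No direction turned under any alternative run, and the count of 63 members meeting the limits in the knockdown columns lay between 47 and 69.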

Other observations

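Genes that met the limits in the knockdown columns alone, outside the named families, numbered 46, of which 16 were small RNAs. Among the other 30, 18 were at 10 or more FPKM in wild type at 72 h as well and missed the set through their 36 h level. The most abundant were at similar levels at 72 h, as for CG13069 with 2114 FPKM in KD+recovery and 2223 FPKM in wild type, and CG13678 with 1627 and 1690 FPKM. Others differed more: CG17127 had 87.7 FPKM in KD+recovery against 231 FPKM in wild type, and CG4302 had 25.4 against 74.5 FPKM. Of the 30, 6 were 2-fold or more higher in KD+recovery. At 36 h CG13069 had 0.219 FPKM in KD and 1.75 FPKM in wild type. Sfp33A4, a seminal fluid protein gene, had 20.4 FPKM in KD+recovery at 72 h and was listed at 0 in wild type, and Ntl, a predicted neurotransmitter transporter, had 11.4 FPKM in KD+recovery against 1.53 FPKM in wild type.

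Outside the set, 12 protein coding genes at 10 or more FPKM in wild type at 72 h were 10-fold or more lower in KD+recovery. Cpr65Ea, a cuticle protein gene, had 3.15 FPKM in KD+recovery against 298 FPKM in wild type, and ImpE2, an ecdysone-inducible gene, had 1.08 against 31.8 FPKM. At 36 h ImpE2 had 176 FPKM in KD and 121 FPKM in wild type. Cyp6a17, a cytochrome P450, had 0.0265 FPKM in KD+recovery against 11.5 FPKM in wild type at 72 h, and 0.0253 FPKM in KD against 1.92 FPKM in wild type at 36 h. SMC2, a condensin subunit, had 0.888 FPKM in KD+recovery against 19.99 FPKM in wild type at 72 h, and 2.19 FPKM in KD against 11.4 FPKM in wild type at 36 h. Cyp6a17 and SMC2 were thus lower in knockdown animals at both times. S-Lap1 (CG6372), a sperm aminopeptidase on the male germline list, had 0.764 FPKM in KD+recovery against 15.8 FPKM in wild type and missed the set at 36 h, with 1.35 FPKM in wild type.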
